A study of Mus musculus with 3 samples.

Results

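Muc2, Tff3, Fcgbp, Clca1, Zg16, Spink4 and Agr2 are genes of the mucus that goblet cells secrete into the gut. They are 7 of the 32285 genes counted in single-cell RNA-seq libraries of mouse small intestinal organoids, taken by symbol, and each of the 7 symbols was found once in the gene list. The genes were read in single cells, alone, together with each other and together with Defa24, an antimicrobial defensin of Paneth cells.

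Goblet and Paneth cells are secretory cells of the intestinal epithelium, and both arise from progenitors that express the transcription factor Atoh1. Goblet cells secrete a gel built on the Muc2 mucin, whereas Paneth cells sit at the crypt base beside the stem cells and secrete defensins and lysozyme. Apc restrains Wnt signalling, and Wnt signalling is known to favour Paneth over goblet differentiation.

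Organoids are epithelial cells grown in a gel as hollow bodies that keep a crypt-like zone. The data were 3 libraries, 1 for each genotype, made from C57BL/6 organoids at passage 3 and day 6 of culture. The WT library was wild type, with 21 days from tamoxifen to analysis. The LApc library carried Lgr5-CreERT2 and Apc fl/fl and was taken at 29 days. The LApcL library carried Lgr5-CreERT2, Apc fl/fl and Lef1 fl/fl and was taken at 21 days. All groups are labelled as given 2 doses of tamoxifen at 2 mg, which activates the Cre recombinase in Lgr5+ stem cells, so that only cells descended from these can lose the floxed genes. The labels do not say whether the WT mice behind these organoids carried the Cre, although WT controls in another experiment of the study carried the Lgr5 Cre allele alone. A single mouse per group is stated for the epithelial cells the study profiled directly, in an experiment that was repeated, and the number behind each organoid library is not stated separately.

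A cell here is a barcode found in 1 library only, with at least 1000 unique molecular identifiers (UMIs, each a tag on 1 captured RNA molecule) and at most 20% of them mitochondrial. Between 3245 and 3311 barcodes of each library occurred in another library as well, 3195 of them in all 3, and were left out. This left 2567 WT, 3272 LApc and 3807 LApcL cells with 54460397, 95625630 and 88832931 UMIs and medians of 8170, 24632.5 and 10268 UMIs per cell. The epithelial marker Epcam stood at 1164, 1583 and 2080 counts per 1000000 UMIs (CPM) and the endothelial marker Pecam1 at 1.06, 1.56 and 1.04. Lef1 stood at 0.955, 70.9 and 49.2 CPM and Apc at 22.3, 88.1 and 94.6, but 3' counts do not show whether a floxed exon was lost, so they do not check the genotypes. The LApc library held Xist at 1278 CPM and Ddx3y at 0.0314, against 1.10 and 0.259 for Xist and 48.3 and 47.5 for Ddx3y in WT and LApcL. Genotype therefore cannot be told apart from sex and time in any comparison with LApc. With 1 library per genotype no test between genotypes was possible, and the intervals given are exact at the 95% level and cover counting error only.

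Sequences upstream of the genes are shown because the mucus genes were found together in WT cells, while Fcgbp parted from Muc2 in the other libraries. RefSeq promoter entries (GRCm38.p6) matched 3 of the 7 genes, and the 250 bases before the start site are printed 5' to 3' on the plus strand. Capitals mark CAGCTG, the core of an E-box of the kind Atoh1 binds, and TATAA, the letters of a TATA box. The forkhead-type motif TGTTTAC was searched as well, and all were read on both strands, with no match overlapping another in these windows.
Muc2 (chr7:141690090-141690339): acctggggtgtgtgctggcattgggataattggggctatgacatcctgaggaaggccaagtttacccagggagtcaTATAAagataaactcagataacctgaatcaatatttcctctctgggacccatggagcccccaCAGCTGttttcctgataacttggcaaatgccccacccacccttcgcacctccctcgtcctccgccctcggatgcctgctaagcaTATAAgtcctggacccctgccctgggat
Fcgbp (chr7:28070986-28071235): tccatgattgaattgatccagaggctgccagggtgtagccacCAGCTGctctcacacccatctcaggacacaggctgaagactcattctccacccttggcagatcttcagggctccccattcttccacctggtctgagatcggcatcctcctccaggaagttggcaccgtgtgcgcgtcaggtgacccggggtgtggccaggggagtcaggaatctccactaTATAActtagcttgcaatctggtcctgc
Agr2 (chr12:35992675-35992924): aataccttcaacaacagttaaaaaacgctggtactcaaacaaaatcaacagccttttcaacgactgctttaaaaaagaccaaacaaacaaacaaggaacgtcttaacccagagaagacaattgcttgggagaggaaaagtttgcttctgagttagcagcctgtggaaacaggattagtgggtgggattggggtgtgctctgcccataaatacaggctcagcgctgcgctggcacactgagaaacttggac
Muc2 held CAGCTG at position -112 and TATAA at -174 and -28, counted back from the start site. Fcgbp held CAGCTG at -208 and TATAA at -28. Agr2 held neither. Its RefSeq start site lies inside the gene as annotated in GENCODE, so the last 18 bases of its window are part of the gene positions given further on, whereas the Muc2 and Fcgbp windows end just before theirs. TGTTTAC was in none of the 3 windows. Among all 32851 promoters of this length, 13.0% held CAGCTG, 22.8% held TATAA and 3.17% held TGTTTAC. The letters describe the windows and do not show binding.

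Muc2 (ENSMUSG00000025515) encodes the gel-forming mucin itself and lies on the plus strand of chromosome 7 at 141690340 to 141754693 in mm10. It had 5665 UMIs in WT (104 CPM, interval 101 to 107), 548 in LApc (5.73 CPM, interval 5.26 to 6.23) and 1046 in LApcL (11.8 CPM, interval 11.1 to 12.5). The WT level of Muc2 was 18.2-fold above LApc and 8.83-fold above LApcL. LApcL was 2.05-fold above LApc (interval 1.85 to 2.28).

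Tff3 and Spink4 are small secreted peptides of goblet cells, a trefoil factor and a Kazal-type protease inhibitor. Tff3 (ENSMUSG00000024029, chromosome 17, 31125306 to 31129646, minus strand) stood at 729 CPM (WT), 169 (LApc) and 352 (LApcL). Spink4 (ENSMUSG00000028415, chromosome 4, 40920052 to 40931395, plus strand) stood at 504, 87.7 and 217 CPM. Both were highest in WT and lowest in LApc. Tff3 was 4.31-fold lower in LApc and 2.07-fold lower in LApcL than in WT. For Spink4 the same folds were 5.75 and 2.32. LApcL was above LApc by 2.08-fold in Tff3 and 2.48-fold in Spink4.

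Agr2 is a disulfide isomerase of the endoplasmic reticulum that is needed to make Muc2. The gene (ENSMUSG00000020581, chromosome 12, 35992907 to 36004087, plus strand) stood at 141 CPM (WT), 12.8 (LApc) and 42.1 (LApcL). Agr2 was 11.0-fold lower in LApc and 3.35-fold lower in LApcL than in WT, and LApcL was 3.28-fold above LApc (interval 3.08 to 3.51).

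Fcgbp, a large mucus protein that is secreted with Muc2, kept another order. The gene (ENSMUSG00000047730, chromosome 7, 28071236 to 28120862, plus strand) stood at 293 CPM (WT), 43.9 (LApc) and 20.4 (LApcL). Fcgbp was 6.68-fold lower in LApc and 14.4-fold lower in LApcL than in WT. It was the member that stood lower in LApcL than in LApc, by 2.15-fold (interval 2.04 to 2.28).

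Zg16 and Clca1 were nearly absent from the LApc and LApcL cells. Zg16 is a lectin of the mucus that binds Gram-positive bacteria, and Clca1 is a secreted metalloprotease that processes the Muc2 gel. Zg16 (ENSMUSG00000049350, chromosome 7, 127050156 to 127087328, minus strand) had 4338 UMIs (WT), 0 (LApc) and 1 (LApcL). Set at 3 UMIs, the limit that a count of 0 allows, Zg16 was at least 2539-fold lower in LApc than in WT, and by the exact interval used for the other ratios at least 2064-fold. These bounds hold for barcodes found in 1 library. With barcodes of several libraries kept, Zg16 had 4384 UMIs (WT), 38 (LApc) and 32 (LApcL), and was 187-fold lower in LApc (interval 136 to 264) and 208-fold lower in LApcL (interval 147 to 304) than in WT. Against the 1 UMI in LApcL the ratio was 7076, with an interval from 1269 to 279547. In the annotation, 2 gene models on the opposite strand overlap Zg16, and none overlap the other 6 genes. Clca1 (ENSMUSG00000028255, chromosome 3, 145003817 to 145032776, minus strand) had 104 UMIs (WT), 1 (LApc) and 11 (LApcL). The WT level of Clca1 was 183-fold that of LApc (interval 32.1 to 7281) and 15.4-fold that of LApcL (interval 8.27 to 31.8).

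Defa24 differed from WT in the other direction. It had 3356 UMIs in WT (61.6 CPM), 30242 in LApc (316 CPM) and 152127 in LApcL (1713 CPM). Defa24 was thus 5.13-fold higher in LApc and 27.8-fold higher in LApcL than in WT. Defensin genes are near copies of each other, so reads may have been split among them in ways that cannot be resolved.

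**Figure D1:**
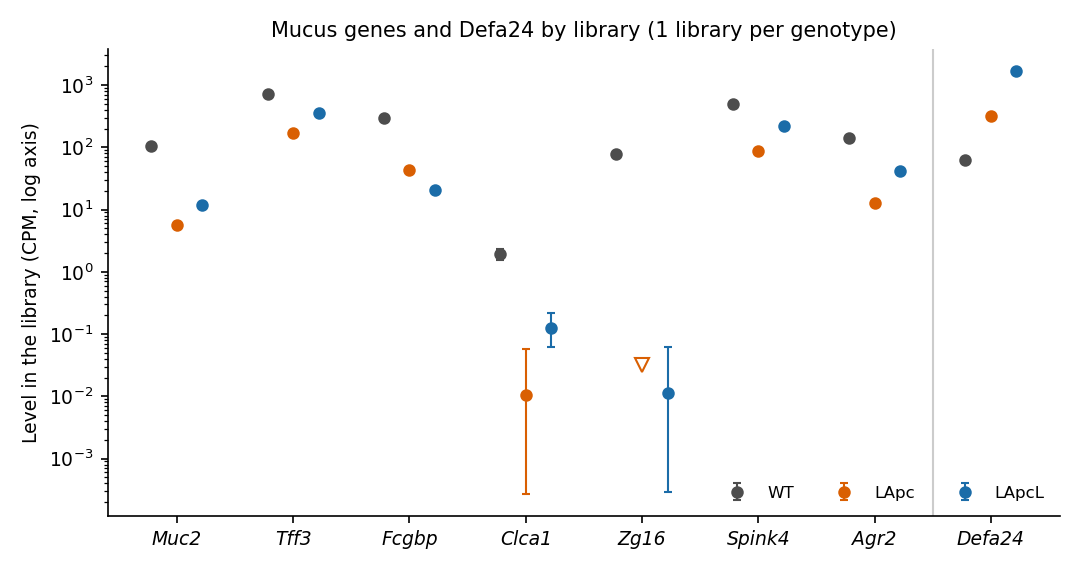
Level of the 7 mucus genes and Defa24 in CPM (log axis) in the WT, LApc and LApcL libraries, 1 point per library, with exact Poisson 95% intervals that are narrower than most points. The open triangle marks 0 Zg16 UMIs in LApc, drawn at the limit of 3 UMIs (0.0314 CPM). Every mucus gene is highest in WT, Fcgbp alone is lower in LApcL than in LApc, and Defa24 is lowest in WT and highest in LApcL.

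Across all genes, differences were measured as log2 of CPM + 1 against CPM + 1, a scale that understates the change of low genes, and a gene was called at 2-fold or more on it. All 7 mucus genes were called lower in LApc than in WT, where 8.48% of 17283 genes were called lower and 18.3% higher. All 7 were also called lower in LApcL than in WT, where 9.56% of 16625 genes were lower and 19.2% higher. Their median log2 difference was -2.71 in LApc and -1.72 in LApcL, beside 0.25 and 0.24 over all genes. With a mitochondrial limit of 10% in place of 20% these medians were -3.81 and -2.63. Between LApcL and LApc, Tff3, Spink4 and Agr2 were called higher and Fcgbp lower among the 6 genes with enough UMIs, where 3.83% of 16689 genes were lower and 1.31% higher. Muc2 missed the call with a log2 difference of 0.92, and Clca1 stood at 0.15. Scaling by median of ratios in place of total UMIs shifted the scale by -0.40 (LApc) and -0.43 (LApcL) against WT and by -0.03 between LApcL and LApc. The median of all genes was then 0.03, -0.02 and -0.03 in these comparisons, and no median of the mucus genes changed sign.

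Of 18 other goblet cell genes, 9 were called lower and 4 higher in LApc than in WT, with a median log2 difference of -0.86, where 8.48% of all genes were lower and 18.3% higher. In LApcL against WT 4 were lower and 4 higher, with a median of -0.70, where 9.56% of all genes were lower and 19.2% higher. Guca2a, which encodes guanylin, the hormone of salt and water secretion, stood at 150 CPM (WT), 22.2 (LApc) and 52.2 (LApcL). Hepacam2, a membrane protein of secretory cells, stood at 14.0, 2.29 and 7.31 CPM. The transcription factor gene Foxa3 ran the other way, at 10.8, 40.2 and 40.5 CPM, as did the transcription factor gene Creb3l4, at 1.74, 8.33 and 12.0 CPM. Bcas1 stood at 1.78, 8.96 and 8.80 CPM and the glycosyltransferase gene Galnt12 at 6.06, 11.3 and 18.6. Against WT, Galnt12 was called higher in LApcL but not in LApc. The other genes called lower in LApc, named after their values were seen, were Slc12a8, Tpsg1, Ern2, Klk1, Ramp1, Fer1l6 and Spdef, a transcription factor of goblet cell maturation that stood at 3.78, 0.638 and 1.73 CPM. The other gene called higher in LApc, Capn9, named likewise, stood at 1.23, 7.00 and 0.146 CPM. Between LApcL and LApc, 1 of the 18 was lower and 2 were higher, where 3.83% of all genes were lower and 1.31% higher. The shares of the 18 called higher against WT were near those of all genes, and nothing is read from them.

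The counts of the next lists stand beside the same shares of all genes, 8.48% lower and 18.3% higher in LApc against WT, 9.56% and 19.2% in LApcL against WT, and 3.83% and 1.31% in LApcL against LApc. Of 9 other mucin genes, 7 had enough UMIs in LApc against WT, with 2 lower and 1 higher, and 5 in LApcL against WT, with 2 lower and 0 higher. In LApcL against LApc 1 of 7 was lower and 3 were higher. Muc13, a membrane mucin of the epithelial surface, stood at 386, 60.9 and 125 CPM in WT, LApc and LApcL. The gastric gland mucin Muc6 had 1 UMI (WT), 1469 (LApc) and 20 (LApcL), and 5 of the 1469 lay in cells rich in Defa24 as defined further on. Of 10 Paneth cell genes, 0 were lower and 9 higher in each of LApc and LApcL against WT, and 6 were higher in LApcL than in LApc. Of 6 enteroendocrine genes 5 were lower in both, and of 6 enterocyte genes all 6 were lower in both. Stem cell genes were higher for 4 of 5 in both, with Olfm4 lower, and genes of dividing cells for 1 of 5 in LApc and 4 of 5 in LApcL. Tuft cell genes were higher for 1 of 4 tested in LApc and 0 of 4 in LApcL. Endothelial genes were higher for 2 of 4 in LApc and 1 of 3 in LApcL. The part of these shifts in cell make-up in the mucus gene levels was not tested.

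The UMIs of the mucus genes came from few cells, and how few depended on gene and library. In WT, 55 cells held 90% of the Muc2 UMIs, 72 held that share of Tff3, 68 of Spink4, 50 of Agr2, 20 of Zg16 and 11 of Clca1. In LApc, 27 cells held that share of Spink4, 56 of Agr2, 111 of Muc2 and 132 of Tff3. In LApcL the counts were 56 for Spink4, 82 for Agr2, 72 for Muc2 and 98 for Tff3. For Muc2 these were 111 of 165 positive cells in LApc, against 55 of 188 in WT and 72 of 163 in LApcL.

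Fcgbp was spread over more cells. In WT, 100 cells held 90% of its UMIs, whereas 892 did in LApc and 583 in LApcL. The 5 highest Fcgbp cells held 21.0% (WT), 4.31% (LApc) and 17.3% (LApcL) of its UMIs. The highest single cell had 808, 45 and 94 Fcgbp UMIs. Cells with any Fcgbp UMI numbered 855 in WT, 1312 in LApc and 764 in LApcL, or 33.3%, 40.1% and 20.1%, and at equal depth, as defined next, the shares were 7.44%, 4.22% and 2.26%.

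**Figure D2:**
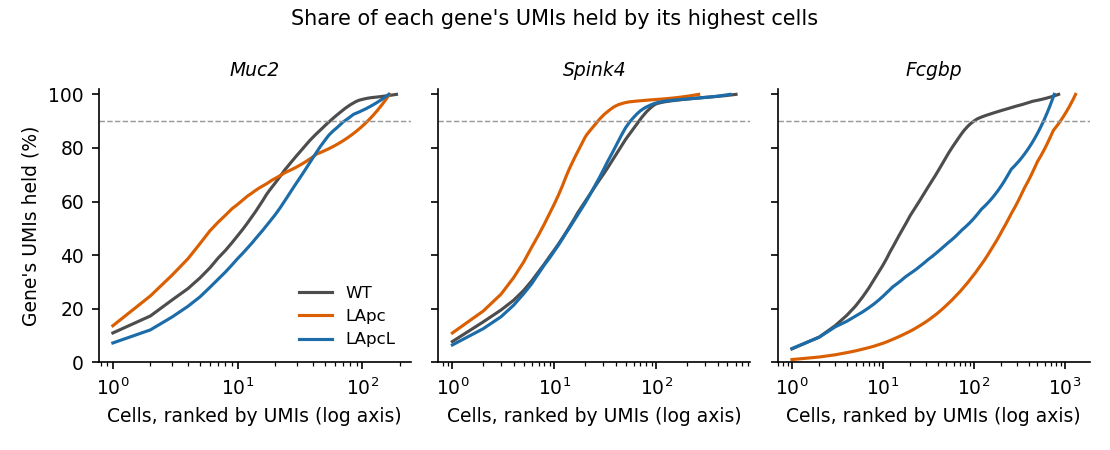
Cumulative share of the UMIs of Muc2, Spink4 and Fcgbp (vertical axis, percent) against the number of cells, ranked by that gene's UMIs from the highest down (log axis), with 1 line per library. The dashed line marks 90%. The Fcgbp lines of LApc and LApcL reach it at 892 and 583 cells, far to the right of the WT line at 100 cells, while the Spink4 lines reach it at 68 cells or fewer in each library.

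To compare shares of cells at equal depth, each cell was thinned at random to 1000 UMIs. Muc2 was then found in 3.86% of WT cells (interval 3.15 to 4.68), 0.489% of LApc cells (interval 0.280 to 0.793) and 1.21% of LApcL cells (interval 0.886 to 1.61). Without thinning, Muc2 was found in 7.32%, 5.04% and 4.28%. Agr2 had the same order after thinning, at 4.13%, 0.550% and 1.86%, and Spink4 too, at 7.05%, 1.93% and 3.73%. Tff3 differed least, at 6.93% in WT, 5.50% in LApc and 6.17% in LApcL, and its intervals in LApc (4.74 to 6.34) and LApcL (5.43 to 6.98) overlapped. Zg16 was found in 1.91% of thinned WT cells and in 0 of the LApc and LApcL cells, which allows shares of up to 0.0917% and 0.0788% at 3 cells, and of 0.113% and 0.0969% by the exact interval. These limits are for cells with a UMI at this depth and not for cells that express the gene. Clca1 was found in 0.117%, 0% and 0.0263%.

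Free RNA in the suspension can put UMIs of secreted-protein genes into other cells. WT cells with at least 1% of UMIs from Fabp1, the fatty acid-binding protein of enterocytes, served as cells presumed to lack the mucus genes. There were 350 such cells, with a median of 41813.5 UMIs. Some held more than scattered UMIs. At full depth, 302 Zg16 UMIs lay in 11 of them, 141 Muc2 UMIs in 15 and 11 Clca1 UMIs in 1. Whether these came from free RNA was not tested, so the shares may overstate that background. After thinning, 1.14% of them had Muc2, 2.57% Tff3, 3.43% Fcgbp, 2.00% Spink4, 0.286% Agr2 and 0.571% Zg16. The WT shares were above these for every one of the 6 genes, although that of Zg16 lay within the interval of these cells (0.0693 to 2.05). In LApc the shares of Muc2, Fcgbp, Spink4 and Agr2 lay below or within the intervals of these WT cells, which were 0.312 to 2.90% for Muc2, 1.78 to 5.91% for Fcgbp, 0.808 to 4.08% for Spink4 and 0.00723 to 1.58% for Agr2. In LApcL the same held for Muc2, Fcgbp and Spink4. Tff3 in both libraries lay above its interval (1.18 to 4.83), as did Agr2 in LApcL. Cells with that much Fabp1 were sought in WT only, where the mucus genes were highest, so the background in LApc and LApcL was not measured and may be lower.

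Cells with several mucus genes were a larger share of the WT library than of LApc or LApcL. After thinning, 111 WT cells (4.32%) had UMIs of 3 or more of the 7 genes, against 26 LApc cells (0.795%) and 70 LApcL cells (1.84%). Cells with 1 or more of the 7 genes numbered 359 (WT), 323 (LApc) and 362 (LApcL). Clca1 and Zg16 were found in at most 1 thinned cell of LApc or LApcL, so they bound how many of the 7 genes a cell there could hold. A count over the other 5 genes was therefore added after the values were seen. Of these 5, 3 or more were found in 110 WT, 26 LApc and 70 LApcL cells, 4 or more in 96, 5 and 23 cells (3.74%, 0.153% and 0.604%), and all 5 in 60, 1 and 5 cells (2.34%, 0.0306% and 0.131%).

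Cells with several mucus genes mostly held Defa24 in LApc and LApcL but not in WT. Of the cells with 3 or more mucus genes, 20.7% had a Defa24 UMI in WT, 80.8% in LApc and 82.9% in LApcL. Over all thinned cells Defa24 was found in 2.03%, 2.44% and 6.93%. Read from Defa24 the order differed. Of the thinned Defa24-positive cells, 19 of 52 had Muc2 in WT (36.5%), 8 of 80 in LApc (10%) and 35 of 264 in LApcL (13.3%). Fcgbp was found in 38.5%, 12.5% and 5.30% of them, and Tff3 in 48.1%, 50% and 41.7%.

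**Figure D3:**
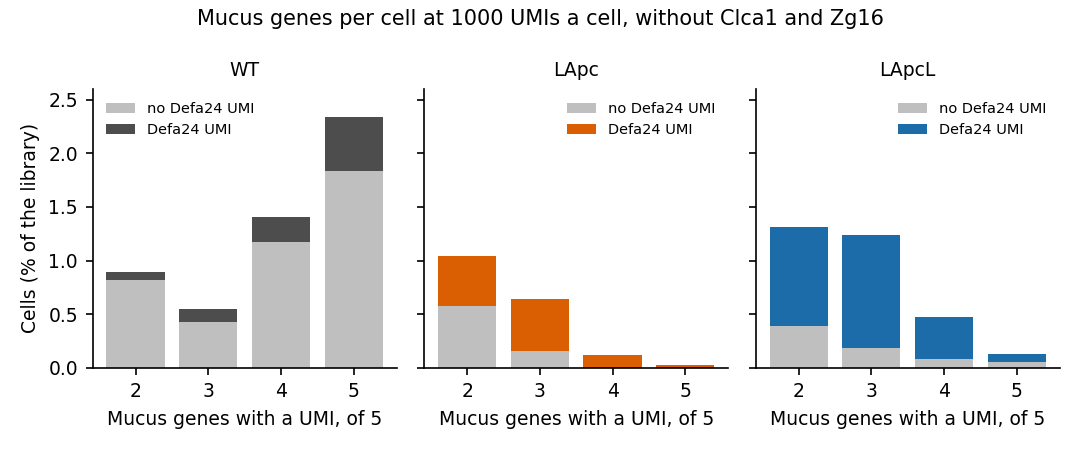
Share of cells (percent of the library) with UMIs of 2 to 5 of the mucus genes Muc2, Tff3, Fcgbp, Spink4 and Agr2 after thinning each cell to 1000 UMIs, in WT, LApc and LApcL, with the part of each bar that also had a Defa24 UMI in dark grey (WT) or colour. The tallest WT bar is that of all 5 genes and WT bars are mostly light grey, whereas LApc and LApcL bars fall from 2 genes on and are mostly coloured from 3 genes on.

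Pair by pair, the company of Muc2 differed by gene. Of the thinned Muc2-positive cells, 85 of 99 had Tff3 in WT, 9 of 16 in LApc and 39 of 46 in LApcL. Spink4 was found in 83, 9 and 35 of these cells. Agr2 was found in 61 of 99 (61.6%, interval 51.3 to 71.2), 4 of 16 (25%, interval 7.27 to 52.4) and 18 of 46 (39.1%, interval 25.1 to 54.6). Fcgbp was found in 84 of the 99 in WT (84.8%, interval 76.2 to 91.3), in 1 of 16 in LApc (6.25%, interval 0.158 to 30.2) and in 8 of 46 in LApcL (17.4%, interval 7.82 to 31.4). For Fcgbp the WT interval lies above both others, and for Tff3 the intervals of WT (77.4 to 92.0) and LApc (29.9 to 80.2) overlap. Zg16 was found in 35 of the 99 WT cells.

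Defa24 was found in 19 of the 99 Muc2-positive WT cells (19.2%, interval 12.0 to 28.3), in 8 of 16 in LApc (50%, interval 24.7 to 75.3) and in 35 of 46 in LApcL (76.1%, interval 61.2 to 87.4). Among cells without Muc2 the shares with Defa24 were 1.34%, 2.21% and 6.09%. The WT and LApcL intervals do not overlap, and that of LApc overlaps both.

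Correlations over cells are given as a description of cells that share a library and a range of depth. On log-scaled values at full depth, the 10 pairs among Muc2, Tff3, Fcgbp, Spink4 and Agr2 had a median Pearson r of 0.81 over 2567 WT cells (range 0.72 to 0.89), 0.45 over 3272 LApc cells (range 0.12 to 0.68) and 0.64 over 3807 LApcL cells (range 0.25 to 0.75). Clca1 and Zg16 are left out of these medians because they were nearly absent outside WT, a choice made after seeing the values. With them the medians were 0.64 (21 pairs), 0.13 (15 pairs) and 0.21 (21 pairs). The r of Muc2 with Fcgbp was 0.83, 0.13 and 0.25 in WT, LApc and LApcL. For Tff3 with Spink4 it was 0.89, 0.63 and 0.75. With Defa24, Muc2 had an r of 0.37, 0.50 and 0.68, Spink4 0.43, 0.73 and 0.77, and Fcgbp 0.32, 0.10 and 0.18.

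Cells rich in Muc2 were then set apart, as those with at least 3 Muc2 UMIs making up 0.1% or more of their UMIs, and cells rich in Defa24 as those with at least 3 Defa24 UMIs making up 0.5% or more. These are ranges of a level and not cell types. They are called Muc2-high and Defa24-high. Muc2-high cells numbered 81 in WT (3.16%), 5 in LApc (0.153%) and 15 in LApcL (0.394%). Defa24-high cells numbered 10, 24 and 94 (0.390%, 0.733% and 2.47%). Of the Muc2-high cells, 9 in WT were also Defa24-high (11.1%, interval 5.21 to 20.0), 5 in LApc (100%, interval 47.8 to 100) and 11 in LApcL (73.3%, interval 44.9 to 92.2). With both thresholds halved, 94, 8 and 31 cells were Muc2-high, and with both doubled 60, 1 and 4, so that many LApcL cells lie near the limit. The WT share of Muc2-high cells was 6.41% with a mitochondrial limit of 10% and 1.50% with barcodes of several libraries kept.

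**Figure D4:**
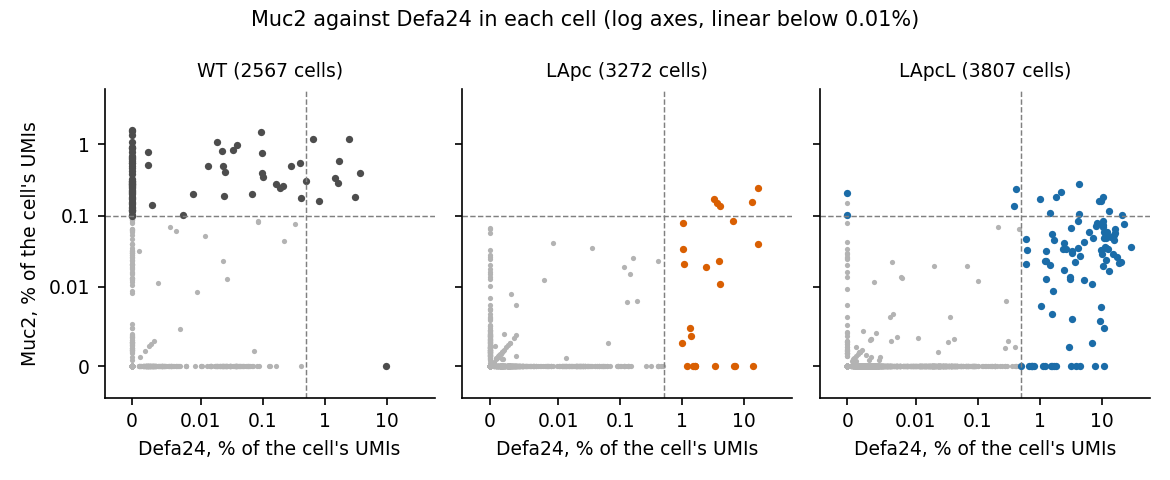
Muc2 (vertical) against Defa24 (horizontal) as a percent of each cell's UMIs, 1 point per cell, on log axes that turn linear below 0.01%. Dashed lines mark the limits of 0.1% for Muc2 and 0.5% for Defa24, and coloured points lie past a limit with at least 3 UMIs. Most Muc2-high WT cells sit left of the Defa24 limit, all 5 of LApc and 11 of 15 of LApcL sit right of it.

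In WT the Muc2-high cells held 93.3% of the Muc2 UMIs, 78.7% of Tff3, 79.5% of Fcgbp, 89.5% of Zg16, 82.9% of Spink4 and 74.3% of Agr2. In LApc the 24 Defa24-high cells held 59.9% of Muc2, 37.9% of Tff3, 68.7% of Spink4 and 52.6% of Agr2. In LApcL the 94 Defa24-high cells held 82.6% of Muc2, 70.7% of Tff3, 88.6% of Spink4 and 60.6% of Agr2. These cells were 0.733% and 2.47% of their libraries. Of the Fcgbp UMIs the Defa24-high cells held 2.00% in LApc and 16.2% in LApcL, although its level in them was 3.21-fold (interval 2.56 to 3.98) and 7.63-fold (interval 6.71 to 8.65) that of cells that were neither Muc2-high nor Defa24-high. For Spink4 the same folds were 346 and 328.

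Within the cells that were both Muc2-high and Defa24-high, Fcgbp and Zg16 differed most between the libraries. Summed over such cells, Tff3 stood at 28078 CPM in WT (9 cells), 19718 in LApc (5 cells) and 16304 in LApcL (11 cells). Spink4 stood at 15218, 18210 and 14395 CPM, and Agr2 at 3144, 2631 and 1755. Fcgbp stood at 12062 CPM (WT), 222 (LApc) and 590 (LApcL). Its range over the cells was 4763 to 39661 CPM in WT, 0 to 372 in LApc and 0 to 2183 in LApcL, with no overlap between WT and the others. Zg16 stood at 3207 CPM in WT with UMIs in 6 of the 9 cells, and had 0 UMIs in the other libraries. These cells had medians of 9627 (WT), 28091 (LApc) and 20274 (LApcL) UMIs, and the part of depth in these levels was not tested.

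The 72 WT cells that were Muc2-high only held the same mucus genes as the 9 with Defa24. Fcgbp stood at 10015 CPM in them, Zg16 at 3139, Tff3 at 24881 and Spink4 at 18985. Agr2 stood at 4887 CPM, against 3144 in the 9. Every one of the 72 cells had UMIs of Tff3, Fcgbp and Spink4, 65 had Agr2 and 35 had Zg16. Over single cells Fcgbp ran from 357 to 42675 CPM with a median of 11558, and Zg16 from 0 to 83070 with a median of 0. Zg16 was thus unevenly spread among cells that all held Fcgbp, with a high level in some and no UMI in others.

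Cells that were Defa24-high only, below the Muc2 limit, numbered 1 in WT, 19 in LApc and 83 in LApcL. They too held mucus genes. Tff3 stood at 7380 CPM in those of LApc and 9180 in those of LApcL, and had UMIs in 19 of 19 and 81 of 83 cells. Spink4 stood at 7034 and 6884 CPM, with UMIs in 17 and 79 cells, and Agr2 at 617 and 932 CPM. Muc2 had UMIs in 11 of 19 and 66 of 83 cells. Fcgbp stood at 115 and 79.8 CPM, and Zg16 had 0 UMIs in both. Clca1 had 0 UMIs in LApc and 9 of its 11 LApcL UMIs in these cells.

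**Figure D5:**
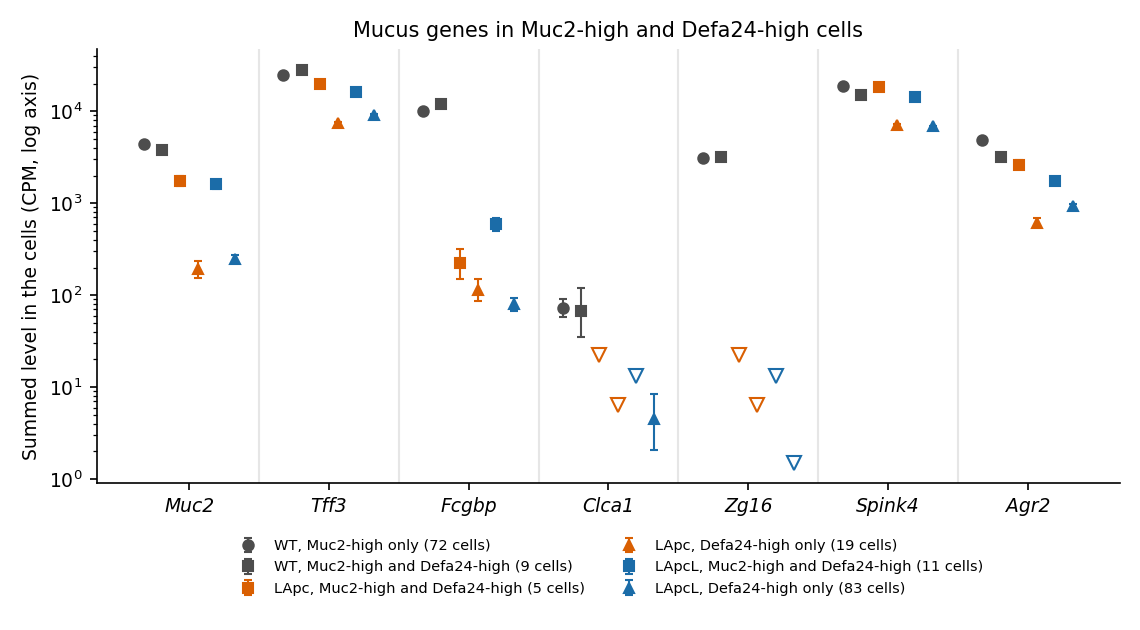
Summed level of each mucus gene (CPM, log axis) by range of cells, with exact Poisson 95% intervals. Circles are WT cells that were Muc2-high only. Squares are WT, LApc and LApcL cells that were both Muc2-high and Defa24-high. Filled triangles are LApc and LApcL cells that were Defa24-high only. The 4 LApcL cells that were Muc2-high only and the 1 WT cell that was Defa24-high only are not drawn. Muc2 was used to choose the cells. Open triangles mark 0 UMIs, drawn at the limit of 3 UMIs. Fcgbp and Zg16 lie far lower in LApc and LApcL than in WT, whereas the squares of Tff3 run from 16304 to 28078 CPM and those of Spink4 from 14395 to 18210 CPM.

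Taken over all Defa24-high cells, none of Tff3, Agr2, Fcgbp, Spink4 and Muc2 stood higher in LApcL than in LApc. The ratio of LApcL to LApc was 0.977 for Tff3 (interval 0.949 to 1.005), 0.951 for Agr2 (interval 0.871 to 1.04), 0.947 for Fcgbp (interval 0.740 to 1.22) and 0.802 for Spink4 (interval 0.778 to 0.826). For Muc2 it was 0.713 (interval 0.627 to 0.812). Defa24-high cells numbered 94 in LApcL and 24 in LApc at a fixed limit of Defa24, which was itself 5.41-fold higher in LApcL, and the part of these numbers in the library levels was not tested. Agr2 was 2.23-fold higher in LApcL than in LApc (interval 2.02 to 2.46) in the cells that were neither, at 13.6 against 6.12 CPM, and these held 31.6% of the LApcL Agr2 UMIs. In the cells that were neither Muc2-high nor Defa24-high, Fcgbp stood at 61.5 CPM (WT), 43.3 (LApc) and 17.3 (LApcL), and LApcL was 2.51-fold below LApc. These cells held 98.0% of the LApc and 82.4% of the LApcL Fcgbp UMIs.

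Markers of other cells were read in the same ranges. The other 9 Paneth genes summed to 1727 CPM in the 72 WT cells, 9054 in the 9 WT cells with Defa24, 148424 in the 5 such LApc cells and 116534 in the 11 such LApcL cells. Lyz1, which encodes lysozyme, stood at 2516, 67003 and 10822 CPM in the Muc2-high and Defa24-high cells of WT, LApc and LApcL. Mmp7, the protease that activates defensins, had 0 UMIs in those of WT and stood at 18949 and 13132 CPM in the others. The 18 other goblet genes summed to 4091, 5225 and 4487 CPM in these cells and to 4131 CPM in the 72 WT cells, against 110 to 153 CPM in cells that were neither. In the 4 LApcL cells that were Muc2-high only, with 39153 UMIs in all, they summed to 8173 CPM and the other 9 Paneth genes to 12004. Enterocyte genes summed to 1026 CPM in the 72 WT cells and 442 in the 9, against 11414 in the WT cells that were neither, and had 0 UMIs in the other cells with both. Tuft genes summed to at most 2.84 CPM, enteroendocrine genes to at most 100 and endothelial genes to at most 26.4 CPM in Muc2-high cells. Doublets were not removed. None of the 9, 5 and 11 cells was among the barcodes with the highest Scrublet doublet scores, a caller whose automatic threshold marked 1, 0 and 0 cells and so did not work, and the part of doublets was otherwise not tested.

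The genes whose level over cells ran most like the mean of the 7 mucus genes differed between the libraries. In WT the first 10 by Pearson r were Tpsg1 (0.81), Sytl2 (0.80), Ern2 (0.74), Selenom, Atp2a3, Gm1123, Fer1l6, S100a6, Cracr2a and Ano7 (0.64), of 13501 genes over 2567 cells. In LApc they were Guca2a (0.77), Ang4 (0.74), Lyz1 (0.68), Defa24 (0.67), Guca2b, Habp2, Clps, Reg4, Defa17 and 5330417C22Rik (0.63), of 14913 genes over 3272 cells. In LApcL they were Guca2a (0.85), Guca2b (0.80), Reg4 (0.78), Defa17, Defa24 (0.75), Ang4, Selenom, Clps, Defa3 and Habp2 (0.69), of 14255 genes over 3807 cells. Defa24, Lyz1 and the ribonuclease gene Ang4 thus stood among the first 10 in LApc or LApcL and not in WT. In WT their r was 0.41, 0.45 and 0.26. Defa17 and Defa3 had too few UMIs to be ranked in WT. A UMI in 20 cells was needed, Defa17 had one in 13, and Defa3 stood at 0.0184 CPM. S100a6 had r of 0.67 in WT, -0.14 in LApc and -0.22 in LApcL.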

How the data were processed

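The authors made 10x Chromium 3' libraries and deposited, per library, whole-number UMI counts per gene and barcode with no normalisation. The submitters' processing notes name Cell Ranger 2.1.1 and mm10, and the deposited matrix headers name Cell Ranger 6.0.1. The deposited barcodes, 11411 WT, 10706 LApc and 12068 LApcL, were filtered as given in the report, and the mitochondrial limit took out 4508, 3509 and 3735 of those found in 1 library. The study's filters on genes per cell and its doublet calls were not used.

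Counts were summed over the cells of a library and scaled to 1000000 UMIs (CPM). Sums were given exact Poisson intervals, shares Clopper-Pearson intervals and ratios of sums intervals from the binomial split of their UMIs, each at 95%. Log2 differences used a pseudocount of 1 CPM over genes with at least 10 UMIs in 1 of the 2 libraries. Thinning drew 1000 UMIs from each cell without replacement, and no cell was too shallow for it. Pearson r was taken over cells on log(1 + counts per 10000), and likeness was ranked among genes with a UMI in 20 or more cells. Positions are from GENCODE M21. Scripts ran in Python 3.11.15 with numpy 2.4.6, scipy 1.17.1 and scanpy 1.11.5 (Scrublet) and were tested on simulated counts.

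The text names the 7 genes, Defa24 and at most 6 genes per list, those with the most UMIs. The remaining goblet genes called in LApc against WT were named after their values were seen. The 10 genes most like the mucus genes in each library are named as well. Other genes named beside these (Epcam, Pecam1, Lef1, Apc, Xist, Ddx3y) check the libraries. The genes, the 9 lists and the motifs were chosen with earlier results of these data known. Alternatives were a 10% mitochondrial limit, deep barcodes, barcodes of several libraries kept, highest doublet scores left out, a pseudocount of 10 CPM, median-of-ratios scaling, equal weight per cell, no minimum count and other limits for Muc2-high and Defa24-high cells. Values without Clca1 and Zg16, and folds of single genes with barcodes of several libraries kept, were added after seeing the data.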

Additional observations from a re-analysis of the deposited data

Results flagged for a closer look

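UMIs of the mucus genes also lay in barcodes that the comparisons left out. Barcodes found in several libraries, with at least 1000 UMIs and within the mitochondrial limit, held 95 UMIs of the 7 genes in WT (2820 barcodes), 155 in LApc (2286) and 139 in LApcL (2403). Zg16 made up 46, 38 and 31 of them, or 5.75, 7.04 and 5.27 CPM, mostly as 1 UMI per barcode in 45, 36 and 28 barcodes. Its level there was thus alike in the 3 libraries, whereas the cells of LApc and LApcL held 0 and 1 Zg16 UMIs.

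Barcodes over the mitochondrial limit held 10273 UMIs of the 7 genes in WT, 3231 in LApc and 2757 in LApcL. Among them 11, 1 and 1 were Muc2-high and 0, 7 and 24 were Defa24-high, with 0 that were both. Fcgbp stood at 84.8, 51.1 and 17.5 CPM in these barcodes, Muc2 at 20.8, 2.17 and 2.35 CPM, and Zg16 at 12.0, 0.0603 and 0.0635 CPM. The order of the libraries in Fcgbp and the excess of Muc2 and Zg16 in WT were thus seen in these barcodes as well. The excess of LApcL over LApc in Tff3, Spink4, Agr2 and Muc2 was much smaller in these barcodes than in the cells. Tff3 stood at 99.5 CPM (LApc) and 104 (LApcL) in them, Spink4 at 38.03 and 47.29, and Agr2 at 3.978 and 3.999. Why the mucus genes lay in either set was not tested.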

How the results depend on the processing

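Of 60 values recomputed under other settings, 41 stayed within the counting interval of the reported value, 19 moved past it, and 0 of the 24 median log2 differences among them changed direction. The median log2 difference of the mucus genes in LApc against WT, -2.71, became -3.81 with a 10% mitochondrial limit, -2.31 in barcodes with at least 10000 UMIs, -2.59 with barcodes of several libraries kept, -2.49 with a pseudocount of 10 CPM, -3.11 with median-of-ratios scaling and -3.14 with equal weight per cell. In LApcL against WT, -1.72 became -2.63 (10% limit), -1.62 (barcodes of several libraries kept), -1.54 (pseudocount), -2.15 (scaling) and -2.18 (equal weight). In LApcL against LApc, 0.99 became 0.74 with the larger pseudocount. The share of Muc2-high cells in WT, 3.16%, became 6.41% (10% limit), 2.24% (at least 10000 UMIs), 1.50% (barcodes of several libraries kept) and 2.34% (limits doubled). It became 0.0306% in LApc (limits doubled), and 0.814% (limits halved) and 0.105% (limits doubled) in LApcL. The share of Muc2-high cells that were also Defa24-high stayed within its interval in each library. Leaving out Clca1 and Zg16, chosen after seeing the data, moved the median r over gene pairs from 0.64, 0.13 and 0.21 to 0.81, 0.45 and 0.64 in WT, LApc and LApcL. Leaving out the highest doublet scores moved 0 of 9 values. No paired analysis was possible because each genotype had 1 library. With 1 library each, the spread between mice or cultures is unknown, and 5 Muc2-high LApc cells leave a wide interval for any share among them.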
